A study of Drosophila melanogaster with 2 samples.

Results

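The genes described here encode the proteins of the large (60S) subunit of the cytosolic ribosome of Drosophila melanogaster, written RpL genes. They were chosen by symbol, as protein-coding genes of the Ensembl BDGP6 annotation whose symbol begins with RpL followed by a digit or P, and 54 of 13945 protein-coding genes met this rule. The measurement was where E(spl)mdelta-HLH, a basic helix-loop-helix repressor that Notch signalling switches on, was found on chromatin at these genes. The study comprised 1 group, 2 biological replicates of a transgenic fly line that stably carries E(spl)m-delta with GFP at its C-terminus, taken as whole embryos of mixed sex at 2 to 12 h. Chromatin was sonicated to 200 to 800 bp and analysed by chromatin immunoprecipitation sequencing (ChIP-seq) with an antibody labelled HLHmδ. The labels name no promoter for the fusion and no group without it, so there was no contrast between conditions. One free-text label calls both samples an input control, while the assay and antibody labels and a separately listed control describe immunoprecipitated chromatin, and they were treated as such.

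Each cytosolic ribosome carries 1 copy of nearly every large-subunit protein, and the genes for them are among the most strongly transcribed in growing cells. In Drosophila, loss of 1 copy of many of these genes gives the Minute phenotype of slow development and thin bristles, and their transcripts begin in a run of pyrimidines that places them under growth control of translation. E(spl) proteins bind the DNA words CACGTG and CACGCG (class B and class C sites) and the N-box CACNAG, and they repress through the corepressor Groucho.

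Calls were taken from the authors' peak list thresholded on the irreproducible discovery rate (IDR). A gene is called bound here if that list had a summit within 2 kb of any annotated transcription start site (TSS) of the gene. The list from both replicates pooled and the list of each replicate held 30000 peaks each, background included. Each peak carries a signal value, which is the authors' enrichment statistic and ranks peaks within a list, with rank 1 the strongest. The lists give no read counts, so the depth is unknown and the intervals below cover counting error only. The symbol rule also took in 4 genes whose symbols end in -like. RpL22-like is a paralogue of a ribosomal protein, while RpLP0-like, RpL7-like and RpL24-like are relatives of ribosome assembly factors and not known as proteins of the mature subunit. The other 50 genes encode subunit proteins.

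The DNA at the start sites is shown first, because the peaks sat on it. The sequences run from 60 bp before the TSS to 20 bp from it, in the direction of the gene, and were read from the RefSeq Release 6 genome, the same assembly as dm6. Capitals mark CTTT within 5 bp of the TSS, a pyrimidine initiator of the kind known from ribosomal protein genes, and the core TATCGAT of the DNA replication-related element (DRE) on either strand. Where a TATCGAT is followed by A, both strands match and 8 letters are in capitals. Some strongly bound genes, such as RpL41, RpL22 and RpL31, lack the initiator at every annotated TSS. Strongly bound genes that carry it are shown by 5 sequences.
RpL13A, chr3R:5624414-5624493, plus strand: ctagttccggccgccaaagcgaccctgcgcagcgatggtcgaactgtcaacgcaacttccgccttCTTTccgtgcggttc
RpL28, chr3L:3222941-3223020, minus strand: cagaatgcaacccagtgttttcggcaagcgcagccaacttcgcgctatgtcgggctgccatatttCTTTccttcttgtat
RpL4, chr3R:27922761-27922840, plus strand: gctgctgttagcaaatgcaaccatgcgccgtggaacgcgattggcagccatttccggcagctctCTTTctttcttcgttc
RpL14, chr3L:8600946-8601025, plus strand: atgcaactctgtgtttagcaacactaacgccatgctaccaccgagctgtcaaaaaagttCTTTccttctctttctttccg
RpL8, chr3L:2587396-2587475, plus strand: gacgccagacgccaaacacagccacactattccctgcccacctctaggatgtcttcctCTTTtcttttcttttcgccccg
Bound genes with lower signal follow, RpL27 and RpL32 with both elements and RpL10 with neither.
RpL27, chr3R:25685032-25685111, minus strand: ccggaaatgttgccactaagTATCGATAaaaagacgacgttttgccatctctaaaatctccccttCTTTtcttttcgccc
RpL32, chr3R:30046142-30046221, minus strand: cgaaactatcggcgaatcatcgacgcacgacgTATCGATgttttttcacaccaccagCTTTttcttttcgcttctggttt
RpL10, chr3L:23095452-23095531, minus strand: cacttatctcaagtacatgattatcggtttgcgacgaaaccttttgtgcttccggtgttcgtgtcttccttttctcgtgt
The last 3 had no thresholded summit, and they show that the initiator (RpL40), the DRE core (RpL26) or neither (RpL21, at the start site shown) was also found there.
RpL40, chr2L:4227639-4227718, plus strand: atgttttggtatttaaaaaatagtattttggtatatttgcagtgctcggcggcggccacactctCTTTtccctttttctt
RpL26, chr3L:18898815-18898894, plus strand: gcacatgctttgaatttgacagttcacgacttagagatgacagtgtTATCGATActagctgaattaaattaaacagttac
RpL21, chr2L:22247856-22247935, minus strand: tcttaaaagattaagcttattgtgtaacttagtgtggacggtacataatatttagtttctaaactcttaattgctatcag

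Peaks stood at most of the RpL genes. Of the 54 genes, 43 (79.6%, exact binomial 95% interval 66.5 to 89.4%) were bound, against 2354 of 13945 protein-coding genes (16.9%). With a window of 500 bp the count was 42, against 12% of all protein-coding genes. Where a summit counted only for the gene whose TSS was nearest, the count was 39 (72.2%), against 11.6%. No test was made of these shares, since the genes were chosen with results of these data known and neighbouring genes can share a peak.

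The peaks at RpL genes were also strong ones. The strongest summit of each bound RpL gene had a median signal of 327 (interquartile range 214 to 493), against 169 (137 to 231) over all bound protein-coding genes, and a median rank of 217, against 1241. Of the 43 bound RpL genes, 14 (32.6%) had their strongest peak among the top 100 of the list, against 117 of 2354 bound protein-coding genes (4.97%). Bound genes of the small subunit (RpS genes and sta) stood higher still, with 11 of 27 (40.7%) and a median rank of 130. Among the 100 strongest peaks themselves, 14 had an RpL TSS as the nearest protein-coding one. Bound RpL genes reached from rank 7 to rank 2427, so they ran through nearly the whole list, with 29 within the first 500 ranks.

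**Figure D1:**
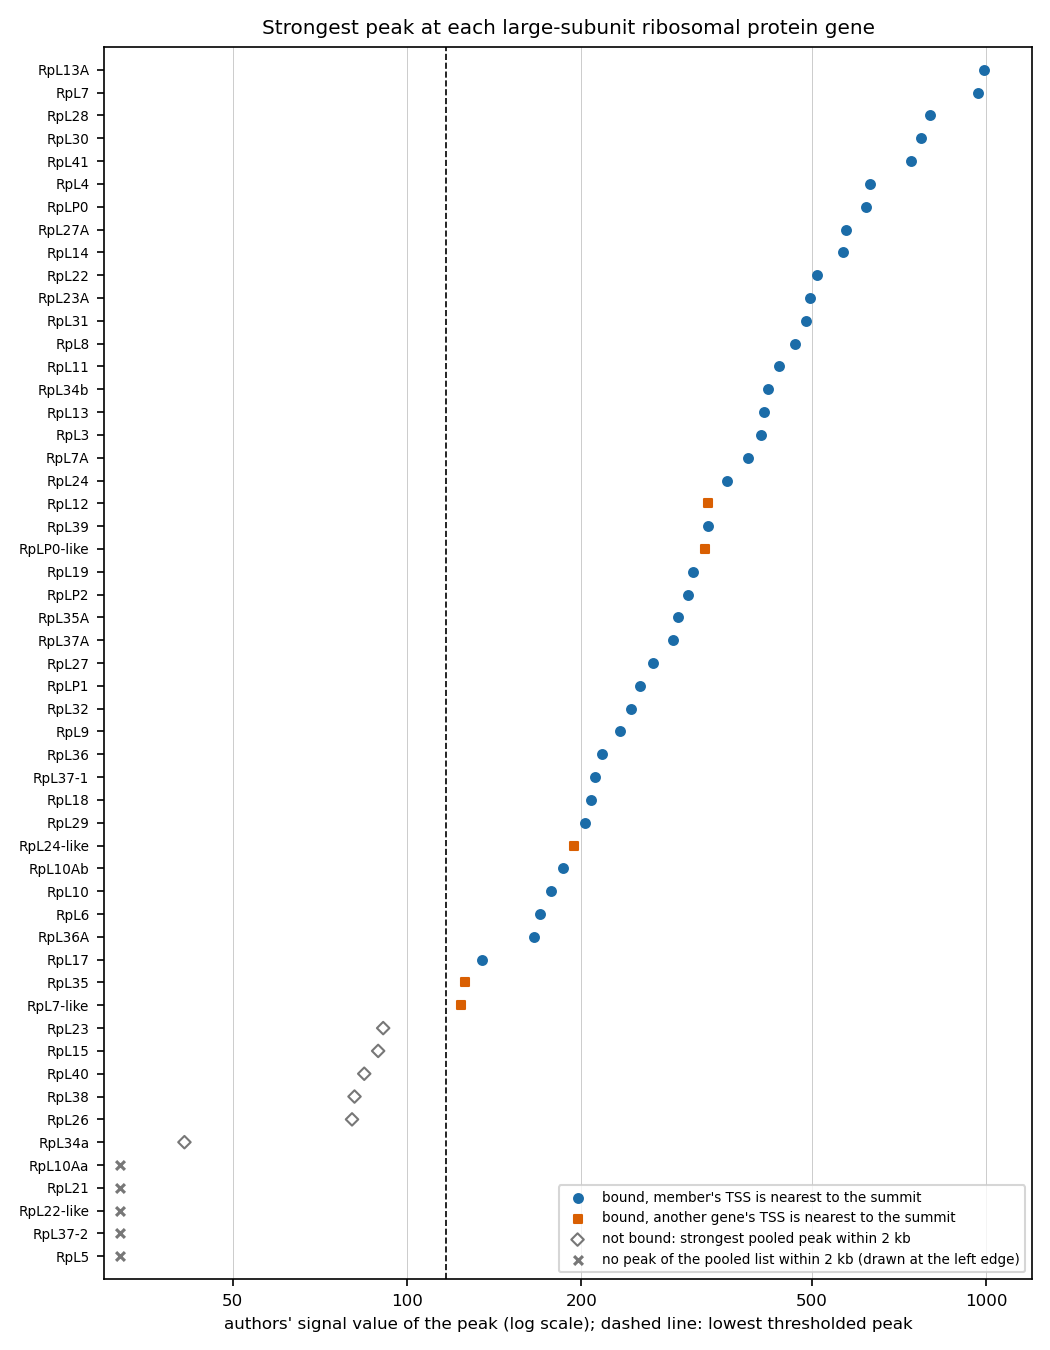
Authors' signal value (log axis) of the strongest peak within 2 kb of a TSS of 53 of the 54 RpL genes, one row per gene, with the weakest thresholded peak of the whole list, 117, as a dashed line. The 42 bound genes drawn run from 992 at RpL13A to 124 at RpL7-like, 6 unbound genes have a weaker peak in the pooled list, and 5 have none.

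The 10 RpL genes with the highest signal all had their summit within 50 bp of their own TSS. RpL13A (FBgn0037351, 3R 5624474 to 5625947 of dm6, plus strand) encodes a surface protein of the subunit, and its peak (3R 5624338 to 5624544) reached signal 992 and rank 7, with rank 8 in replicate 1 and rank 9 in replicate 2. In both replicates the summit was 28 bp before the start site. This was the member with the closest ranks between replicates near the top of the lists.

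RpL7 (FBgn0005593, 2L 10201004 to 10202321, plus strand) had a peak (2L 10200932 to 10201163) with signal 968 and rank 10. Its rank was 17 in replicate 1 and 3 in replicate 2, the best of any RpL gene in either replicate. Its summit was the farthest downstream among summits nearest an RpL gene, 45 bp inside the gene.

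RpL28 (FBgn0035422) followed with signal 801 and rank 15, and ranks of 19 in replicate 1 and 17 in replicate 2. RpL30 (FBgn0086710), whose yeast protein controls splicing of its own transcript, had signal 773 and rank 18, with ranks of 14 in replicate 1 and 29 in replicate 2. RpL41 (FBgn0066084), which encodes the smallest protein of the subunit, had signal 742 and rank 21, with ranks of 18 in replicate 1 and 34 in replicate 2. All 5 of these genes were within the first 34 ranks of both replicates.

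The next 5 were lower in 1 replicate than in the other. RpL4 had signal 629 (rank 34, with 31 in replicate 1 and 54 in replicate 2), and RpL14 had signal 566 (rank 45, with 41 and 70 in the same order). RpLP0 had signal 621 (rank 37, with 24 and 108), and RpL27A had signal 572 (rank 43, with 32 and 131). RpL22, whose fly protein carries a histone H1-like extension, had signal 511 (rank 62) and was the other way round, with rank 100 in replicate 1 and rank 40 in replicate 2.

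The ribosomal stalk, which recruits elongation factors, is built from RpLP0, RpLP1 and RpLP2 on a base that includes RpL12. All 4 genes were bound, with different strength. RpLP0 (rank 37) was followed by RpLP2 with signal 306 (rank 266, with 217 in replicate 1 and 498 in replicate 2) and RpLP1 with signal 253 (rank 463, with 325 in replicate 1 and 1045 in replicate 2). Their summits lay 4 bp and 1 bp upstream of the TSS at RpLP0 and RpLP2 and 18 bp downstream at RpLP1. The strongest summit within 2 kb of RpL12 belonged to its neighbour RpL39, at whose TSS it lay exactly and 1977 bp from that of RpL12 (signal 331, rank 210). RpL12 also had a weak peak of its own (2R 24060250 to 24060499), with signal 141, rank 1872 and a summit 3 bp before its start site, which ranked 3054 in replicate 1 and 1453 in replicate 2.

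RpL5 and RpL11 form a particle with 5S RNA that in mammals also binds the p53 regulator Mdm2, and the genes differed. RpL11 (FBgn0013325) had signal 439 and rank 100, with ranks of 92 in replicate 1 and 119 in replicate 2 and the summit 17 bp upstream of the TSS. RpL5 had no peak within 2 kb in the thresholded or the pooled list, none in replicate 1, and 1 in replicate 2 of rank 15026.

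RpL3 and RpL10 lie close to the peptidyl transferase centre, where peptide bonds form, and RpL10 is among the last proteins to join the subunit. RpL3 had signal 408 and rank 126, with rank 73 in replicate 1 and rank 494 in replicate 2. RpL10 had signal 177 and rank 1121, with rank 1040 in replicate 1. In replicate 2 the RpL10 start site had no peak within 2 kb at all among the 30000 listed, so its call rests on replicate 1.

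RpL4, RpL17 and RpL23A line or ring the tunnel through which the new peptide leaves. RpL4 and RpL23A were strongly bound, RpL23A with signal 497 (rank 68, with 74 in replicate 1 and 53 in replicate 2). The RpL23A summit, at 62 bp, was the farthest upstream among the strongest summits that were nearest to their own RpL gene. RpL17 was among the weakest, with signal 135 and rank 2033. It ranked 1316 in replicate 1 and had no summit within 100 bp of the pooled one in replicate 2. The strongest replicate 2 peak within 2 kb lay 148 bp upstream of the TSS at rank 2009.

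RpL10Ab, the protein of the mobile L1 stalk that guides spent tRNA out, had signal 186 and rank 1004 (777 in replicate 1 and 1924 in replicate 2). RpL40, which is made as a fusion with ubiquitin, was not bound.

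Paralogues differed in signal, or in whether the summit lay at the gene itself. RpL7 and RpL7-like were both bound, but the RpL7-like peak (signal 124, rank 2427) had its summit 364 bp upstream of that gene and 13 bp from the TSS of JhI-21. RpL24 had signal 357 and rank 164 with a summit 18 bp before its own TSS, whereas the summit within 2 kb of RpL24-like (signal 194, rank 904) was 345 bp upstream and 45 bp from the TSS of CG5276. RpLP0 had its own summit. RpLP0-like had a summit 1414 bp upstream and a weaker one 67 bp upstream of its TSS (signal 137, rank 2006), both nearer to 14-3-3zeta.

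In the other 4 pairs 1 gene was bound and the other not. RpL10Ab was bound and RpL10Aa had no peak in any list. RpL22 was bound and RpL22-like had none in any list. RpL34b had signal 420 and rank 111, with ranks of 115 in replicate 1 and 147 in replicate 2. RpL34a had only 2 weak peaks in the pooled list, the stronger of rank 24147. RpL37-1 had signal 211 and rank 746, with ranks of 373 in replicate 1 and 2581 in replicate 2, and RpL37-2 had only a peak of rank 29008 in replicate 1.

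The remaining bound genes lay between these. RpL31 (signal 489, rank 76), RpL8 (467, rank 86), RpL13 (414, rank 119), RpL7A (388, rank 135) and RpL19 (312, rank 251) stood in the upper part, and RpL35A (294), RpL37A (288) and RpL27 (266) followed. RpL32, whose transcript is widely used as a reference in expression assays, had signal 244 and rank 509, RpL9 had 233, RpL36 had 217, RpL18 had 208 and RpL29 had 203. RpL6 had 170 and RpL36A had 166.

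The 3 bound RpL genes with the lowest signal were RpL17 (135), RpL35 (126) and RpL7-like (124). For RpL35 the summit was 579 bp upstream and 10 bp from the TSS of Rab18, and it ranked 3159 in replicate 1 and 1905 in replicate 2. Replicate 1 alone also listed a peak 1 bp upstream of the RpL35 start, at rank 2980. RpL7-like ranked 1751 in replicate 1 and 5319 in replicate 2. Of these genes RpL17 alone was itself nearest to the summit.

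RpL genes with more than 1 thresholded summit within 2 kb numbered 6. One summit was found at 37 of the 43 bound RpL genes (86.0%), against 77.8% of all bound protein-coding genes. At RpL13A the second peak (signal 264, rank 410) lay 1250 bp upstream and 73 bp from the TSS of Dph4. At RpL8 the 2 further peaks, of signal 204 and 120, were 6 bp from msn and 36 bp from dos, and at RpL29 the second, of signal 120, was 10 bp from Arms. RpLP0-like had both of its summits, of signal 327 and 137, nearest to 14-3-3zeta, at 32 bp and 20 bp. At RpLP2 the second peak was nearest to RpLP2 itself, 344 bp upstream of the TSS, with signal 139 and rank 1917, and it ranked 1092 in replicate 1 but 20400 in replicate 2. RpL12 with the RpL39 peak is described above.

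The strongest summits at RpL genes were placed near the start sites. Of the 49 distinct summits within 2 kb of an RpL TSS, 40 had an RpL gene as the nearest one, and several of the others lay beyond 300 bp, such as those already described at RpL8, RpL29 and RpL13A. The strongest summit of each bound RpL gene had a median distance of 19 bp from the nearest TSS of that gene, against 196 bp over all bound protein-coding genes, and 37 of 43 (86.0%) lay within 50 bp, against 34.6%. The bound RpS genes were alike, with 23 of 27 (85.2%) within 50 bp. For 38 of the 43 summits at RpL genes the RpL TSS was the nearest protein-coding one. The other 5 were those at RpL12, RpLP0-like, RpL24-like, RpL7-like and RpL35 named above, and all of them lay more than 100 bp from the RpL TSS.

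The 39 RpL genes that held a summit nearest to their own TSS show the position without the neighbours. The strongest such summits of these genes lay between 62 bp upstream and 45 bp downstream of the TSS. Their median distance was 17 bp, against 48 bp for the 1622 protein-coding genes chosen the same way. Within 50 bp were 38 of them (97.4%), against 51.6%. Upstream of the TSS were 28, downstream 10 and at the very base 1, that of RpL39. All 39 lay upstream of the start codon, by a median of 141 bp, so none was in coding sequence.

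**Figure D2:**
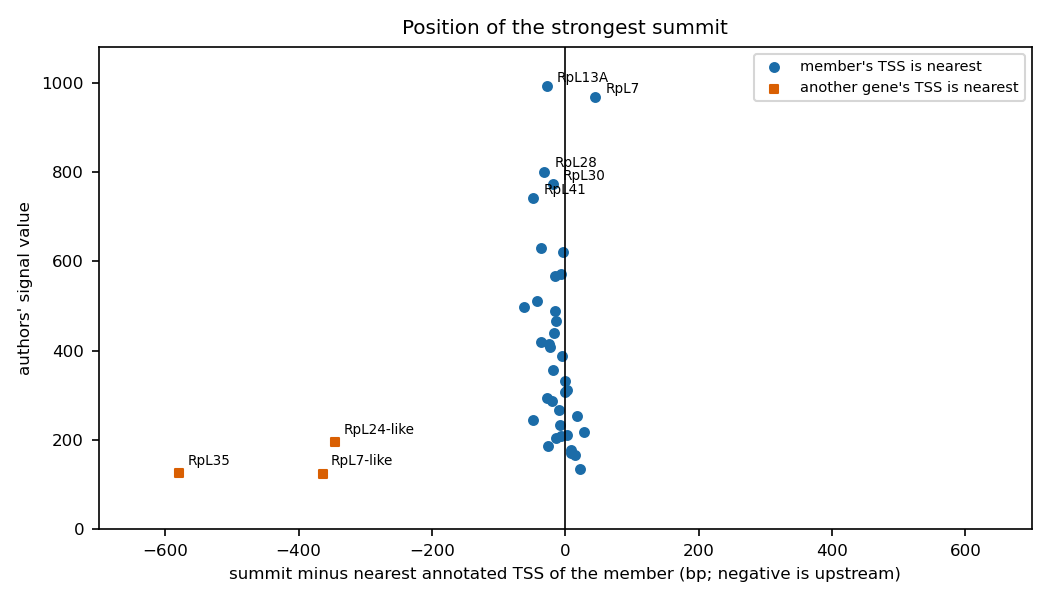
Signal value of the strongest peak of 42 of the 43 bound RpL genes against the distance of its summit from the nearest TSS of that gene in bp, negative being upstream. The points whose nearest TSS is the RpL gene's own lie between 62 bp upstream and 45 bp downstream, and the squares are summits nearer another gene (RpL12 at 1977 bp and RpLP0-like at 1414 bp upstream lie outside the axis).

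Peaks at RpL genes were narrow. The list holds many peaks of exactly 250 bp, and 29 of the 43 bound RpL genes (67.4%) had a strongest peak narrower than that, against 11.3% of all bound protein-coding genes. The bound RpS genes were close, with 15 of 27 (55.6%). Narrow peaks were more common among strong ones, and within the first 500 ranks the shares were 26 of 29 RpL genes (89.7%) and 249 of 501 protein-coding genes (49.7%). The authors' −log10 q value was at its ceiling for 40 of 43 RpL genes (93.0%), against 75.7%, so it does not order them.

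Both replicates held peaks at most bound RpL genes. A summit within 100 bp of the pooled one was found in replicate 1 for all 43 and in replicate 2 for 41, the exceptions being RpL10 and RpL17. Matches in both replicates were as common elsewhere, at 2295 of 2354 bound protein-coding genes, so they were no particular trait of RpL genes. The median shift from the pooled summit was 4 bp in replicate 1 and 7 bp in replicate 2, against 4 bp and 6 bp over the strongest summits of all bound protein-coding genes. When the strongest peaks of 1 replicate, as many as the thresholded list holds, were used in its place, 43 RpL genes (79.6%) were bound in replicate 1, against 16.5% of protein-coding genes, and 39 (72.2%) in replicate 2, against 17%.

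The ranks differed between replicates at these genes. Among the 41 RpL genes matched in both, the median rank was 142 in replicate 1 and 494 in replicate 2, while over the 2295 bound protein-coding genes matched in both it was 1241 and 1295. The rank was better in replicate 1 for 33 of 41 RpL genes (80.5%), against 54.8% of bound protein-coding genes. The RpS genes showed nearly the same share, 20 of 26 (76.9%). Within the first 500 pooled ranks this held for 24 of 29 RpL genes (82.8%), against 57.1% of 499. The 8 that ranked better in replicate 2 were RpL7, RpL28, RpL22, RpL23A, RpLP0-like, RpL32, RpL24-like and RpL35. RpL6 was among those with a wide gap, at rank 742 in replicate 1 and 5251 in replicate 2. The depth of the replicates is unknown and its part in this was not tested.

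The order of the genes was nevertheless alike in the replicates. The Spearman rho of the ranks was 0.842 over the 41 RpL genes and 0.499 over the 2295 protein-coding genes, given as a description, since the genes share libraries, the pooled list by which they were matched, and in the case of RpL12 and RpL39 the peak itself.

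**Figure D3:**
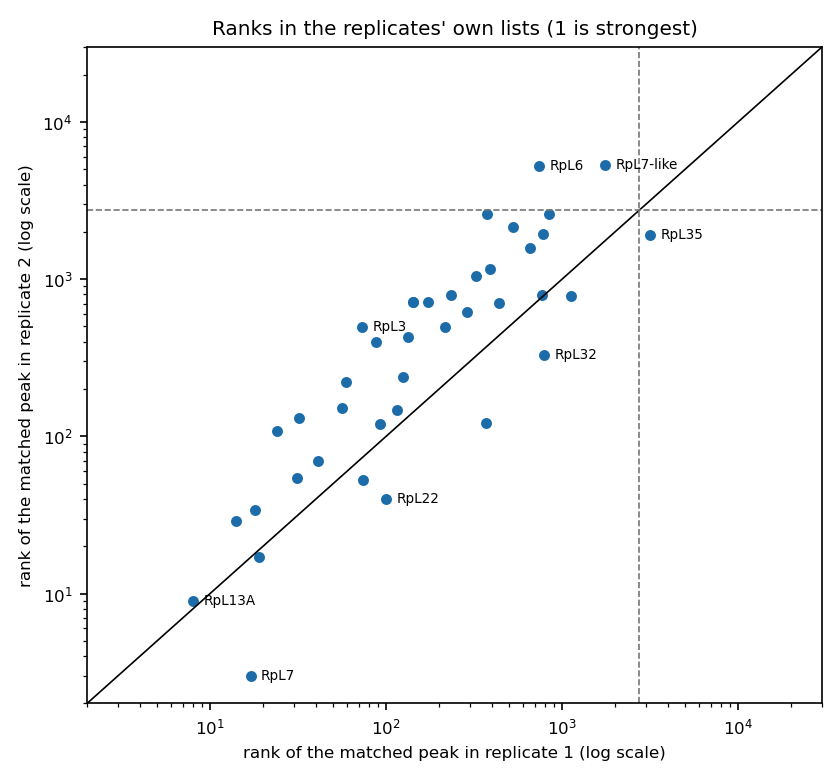
Rank of the matched peak in replicate 2 against its rank in replicate 1 (both log axes) for 40 of the 41 bound RpL genes matched in both replicates, with the line of equal rank and dashed lines at the rank equal to the length of the thresholded list. Of these points, 32 lie above the line, that is, with a better rank in replicate 1.

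The 11 unbound RpL genes fell into those with a weak peak and those with none. In the pooled list 6 had a peak within 2 kb. RpL23 had signal 91.0 (rank 4320) with its summit at the TSS, and RpL15 had 89.2 (rank 4500), also at the TSS. RpL38 had 81.2 (rank 5484) with its summit 87 bp upstream, and RpL26, a protein of the tunnel exit, had 80.4 (rank 5594) with its summit 23 bp downstream. RpL40 had 84.4 (rank 5076), but its summit was 751 bp upstream, and RpL34a had 41.3 (rank 24147).

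The pooled summits of these 6 genes were matched in both replicates at RpL15 and RpL40 alone, within 100 bp. RpL15 ranked 3088 in replicate 1 and 26551 in replicate 2, and RpL40 ranked 9755 and 4602 in the same order. RpL23, at rank 2036, RpL26, at 3156, RpL38, at 4786, and RpL34a, at 15695, were matched in replicate 1 and not in replicate 2. In replicate 2 the strongest peak within 2 kb stood elsewhere at RpL23 (129 bp upstream, rank 3994) and RpL26 (577 bp upstream, rank 27951), and RpL38 and RpL34a had none. The values on either side of the authors' threshold were 124 for RpL7-like, inside, and 91.0 for RpL23, outside, and the weakest peak of the whole thresholded list had 117.

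RpL21, RpL5, RpL37-2, RpL22-like and RpL10Aa had no pooled peak within 2 kb. RpL10Aa, RpL21 and RpL22-like had none in either replicate. Around RpL15, RpL5, RpL21 and RpL38 peaks of any kind were scarce. Within 100 kb there was 1 pooled peak around RpL15, 1 around RpL5, 4 around RpL21 and 4 around RpL38, against a median of 68 around bound RpL genes and 57 around all protein-coding genes. Of the other protein-coding genes within 500 kb, 0 of 3 were bound near RpL15, 0 of 15 near RpL38, 1 of 29 near RpL5 and 2 of 36 near RpL21. The fewest pooled peaks around a bound RpL gene were 5, around RpL10.

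Beside other genes of translation, the RpL genes were closest to those of the small subunit. Of the RpS genes with sta, the small-subunit proteins, 27 of 39 (69.2%) were bound with a median signal of 401 and a median summit distance of 15 bp. Mitochondrial large-subunit genes (mRpL), whose products make the separate ribosome of that organelle, were bound in 6 of 47 cases (12.8%), near the 16.9% of all protein-coding genes. None of those 6 had its summit within 100 bp of the mRpL TSS, and 0 of 47 was the nearest gene to a summit.

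Translation initiation and elongation factor genes (eIF and eEF) were bound in 23 of 52 cases (44.2%) with a median signal of 203. Of these 52 genes, 15 (28.8%) were the nearest gene to a summit. Ribosome biogenesis genes were bound in 8 of 17 cases (47.1%) with a median signal of 174, and 4 (23.5%) were the nearest gene. Over all protein-coding genes 16.9% were bound, with a median signal of 169, and 11.6% were the nearest gene. The biogenesis genes include the 3 assembly-factor relatives among the RpL symbols, so these lists overlap. The others bound were Nopp140, a nucleolar chaperone (243), eIF6, which keeps the subunits apart (229), nop5 (154), Myc, which drives ribosome synthesis (125), and Fib, the nucleolar methyltransferase fibrillarin (120). The intervals of the RpL and biogenesis shares, 66.5 to 89.4% and 23.0 to 72.2%, overlap. Since these lists have 3 genes in common, that overlap is no test of a difference. Counted by nearest gene, the shares were 72.2% of RpL and 23.5% of biogenesis genes.

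**Figure D4:**
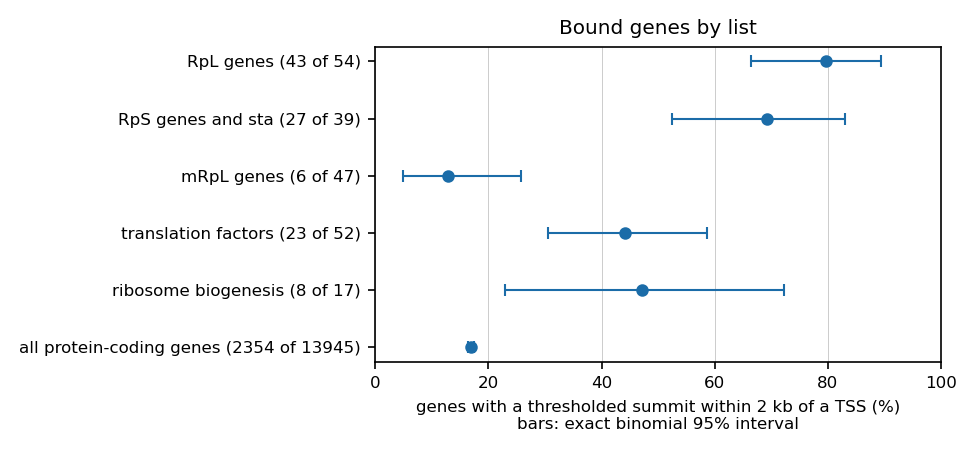
Share of genes in each list with a thresholded summit within 2 kb of a TSS, as points with exact binomial 95% intervals (%). RpL genes stand at 79.6% and RpS genes at 69.2%, mRpL genes at 12.8% lie near the 16.9% of all protein-coding genes at the foot of the plot.

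The start sites of RpL genes shared sequence that the choice by symbol did not use. At the TSS of the gene's 5' end, CTTT with its C within 5 bp, read on the strand of the gene, stood at 18 of 54 RpL genes (33.3%), against 6.41% of all bound protein-coding genes and 5.64% of all protein-coding genes. With every annotated TSS counted the share was 33 of 54 (61.1%), against 11.8% and 8.07%. It was also found at 5 of the 11 unbound genes, namely RpL40, RpL38, RpL37-2, RpL21 and RpL5, and at 28 of the 43 bound ones. At the TSS of the 5' end alone it stood at 15 of the 43 bound and 3 of the 11 unbound genes. The RpS genes had shares of 33.3% at the 5' end and 64.1% with every annotated TSS counted. The 5 strongly bound promoters printed above carry it from 2 bp before the TSS base to 5 bp after it.

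The other words were searched on both strands from 250 bp before to 50 bp after the TSS of the 5' end. TATCGAT, the core bound by the factor DREF, was in 38.9% of RpL promoters and 41.0% of RpS promoters, against 23.7% of bound and 18.2% of all protein-coding promoters. Within 50 bp of the strongest summits it stood in 8 of 42 distinct windows (19.0%), against 3.89% of all thresholded summits. GGTCACA, the core of the promoter word known as Motif 1, was in 20.4% of RpL and 17.9% of RpS promoters, against 14.6% of bound and 9.7% of all promoters. It stood in 16.7% of the RpL summit windows, against 4.29%.

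Words known as binding sites of E(spl) proteins were found at a minority of RpL summits. CACGTG was in 8 of 54 promoters (14.8%), all of bound genes, against 5.44% of bound and 4.2% of all protein-coding promoters, and in 0 of 39 RpS promoters. With every annotated TSS counted it was in 13 of 54 (24.1%), again all of bound genes, against 8.2% of bound and 5.3% of all protein-coding genes and 2 of 39 RpS genes. Bound genes made up 79.6% of all 54. Among the 13, RpLP0-like, RpL24-like, RpL35 and RpL7-like were bound only through summits nearer to another gene. CACGTG was within 50 bp of 4 of the 42 strongest summits (9.52%, against 3.35% of all thresholded summits), those of RpL7, RpL11, RpL29 and RpL6. CACGCG was in 7 promoters (13.0%) at the gene's 5' end, also all of bound genes, against 9.05% and 6.12%, with RpS promoters at 15.4%. With every annotated TSS counted it was in 9 of 54 (16.7%), 1 of them the unbound RpL21, against 16.5% of bound and 9.15% of all protein-coding genes. It stood at 4 of the 42 strongest summits (9.52%, against 8.47%), among them those of RpL7, RpL41 and RpL10Ab. RpL7, with the second highest signal, held both.

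The N-box CACNAG was in 29.6% of RpL promoters, 33.0% of bound and 29.7% of all protein-coding promoters, and in 19.0% of summit windows, against 17.1%. GAGAGAG was in 0 of 54 RpL and 0 of 39 RpS promoters, and in 10.9% of bound protein-coding promoters. TATAAA between 45 and 15 bp before the TSS was found at RpL39 alone (1.85%), against 4.67% and 9.14%. The summit windows of RpL genes had a median GC content of 48.5%, against 51.5% for all thresholded summits. A match to such a short word is a description of the sequence, and a window without one says nothing about the factor.

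**Figure D5:**
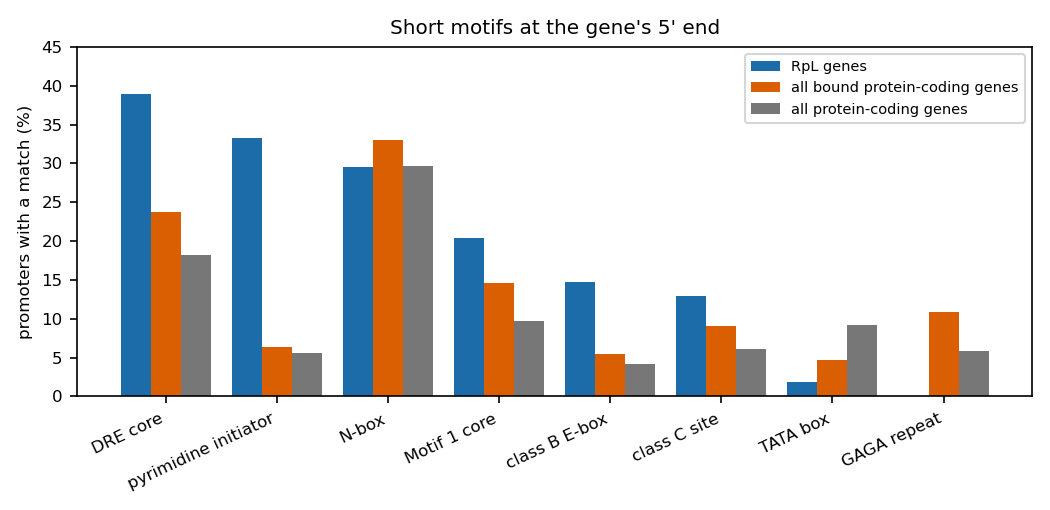
Share (%) of promoters with each short DNA word for the 54 RpL genes, all bound protein-coding genes and all protein-coding genes. The pyrimidine initiator (33.3%, 6.41% and 5.64%) and the DRE core (38.9%, 23.7% and 18.2%) are more frequent at RpL genes, while the N-box shares (29.6%, 33.0% and 29.7%) are alike and no RpL promoter held the GAGA repeat.

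Many RpL genes start close to another gene on the opposite strand. A protein-coding TSS pointing away from the RpL gene lay within 500 bp upstream at 22 of the 54, and 21 of these (95.5%) were bound, with a median signal of 408. Of the 32 without such a neighbour 22 (68.8%) were bound, with a median signal of 300. Such a neighbour was found at 40.7% of RpL genes, against 27.4% of all protein-coding genes. Over all protein-coding genes 21.5% of those with one and 15.1% of those without were bound, with median signals of 165 and 172. The closest pairs were RpL7 with Ripalpha at 30 bp, RpL13 with Dref, the gene of the DRE-binding factor, at 84 bp, RpLP0-like with 14-3-3zeta at 87 bp and RpLP0 with CG7130 at 111 bp. RpL14 stood 127 bp from Nelf-E, a subunit of the negative elongation factor that holds paused polymerase, and RpL28 stood 381 bp from eIF1. At such pairs a summit can belong to either gene, and which of them it acts on was not tested.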

How the data were processed

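The samples were 2 biological replicates of 1 group, whole embryos, per the labels. The authors deposited 4 peak lists in narrowPeak layout on dm6, per the deposited file listing: 1 per replicate, 1 pooled and 1 thresholded on IDR, all called against the same control alignment, which was not analysed here. Aligner, peak caller and the IDR cutoff: not given in the sources used here. Signal is the authors' own enrichment statistic, deposited per peak. The authors' q value was deposited as −log10, and the summit as another column, an offset in bp from the peak start. Read depth is unknown.

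From these files, summits (start plus offset, 1-based) were set against all TSSs of protein-coding genes on the main arms in Ensembl release 115 of BDGP 6. Sequence came from RefSeq Release 6, in which 13882 of 13945 outermost coding starts read ATG. Replicate summits matched within 100 bp. Shares over genes carry exact binomial 95% intervals, and since 1 group allows no contrast no test was made. Members, lists, words and the rule for named genes (the 10 highest and 3 lowest bound, all unbound, all with several summits, role groups and paralogues) were chosen with earlier results of these data known. The counts cover all members, but 1 gene is not reported here by name and is left out of the plots of single genes. The comparison within the first 500 ranks, the counts in neighbouring regions and those by class of gene were added after seeing the data. The assignment of summits to genes was tested on simulated data, where 200 of 200 planted summits were recovered over 13945 genes. Analyses used python 3.11.15, numpy 2.4.6, pandas 2.3.3, scipy 1.17.1 and matplotlib 3.10.9. The alternatives were the window, the list, the start sites counted, the replicate and the motif window.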

Additional observations from a re-analysis of the deposited data

How the results depend on the processing

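The count of bound RpL genes, 43 of 54, lay between 39 and 45 over the 11 alternatives tried for it (window, list length, replicate, start sites, nearest gene, peak over the TSS, symbols ending in -like left out). It was 39 without replicate 1 and 43 without replicate 2. The median signal of 327 lay between 309 and 331. The median distance of the strongest summit, 19 bp, was 32.5 bp without replicate 1 and 17 bp without replicate 2, and the cause of that difference was not tested. Under other ways of matching peaks the median rank stayed at 155 in replicate 1 (43 genes) and at 494 to 496 in replicate 2 (41 or 42 genes). Among the motif shares, CTTT went to 61.1% and CACGTG to 24.1% with every annotated TSS counted, a setting that searches more start sites per gene. TATCGAT went to 19.0% in the narrower windows at the summits. No paired analysis was possible because the series holds 1 group. The lists end at 30000 peaks and give no depth, so a gene without a listed peak is not shown to lack the factor, and 2 replicates of 1 line without an untagged control give no estimate of what the tag or antibody adds.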

Other observations

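RpL genes often carry small nucleolar RNAs, guides of ribosomal RNA modification, in their introns. Annotated small nucleolar RNAs lay inside 16 of the 54, and 14 of these host genes (87.5%) were bound, close to the 79.6% of all RpL genes. Over all protein-coding genes, 51 of 84 hosts (60.7%) were bound, against 16.6% of the others. The 84 hosts include the 16 RpL hosts, and the 51 include the 14 bound ones. RpL28 held 5 of them, RpL23A, RpL3 and RpL17 held 4 each, and the unbound hosts were RpL15 with 2 and RpL5 with 1.

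By chromosome arm, all 6 RpL genes on X were bound, as were 10 of 13 on 2L, 10 of 14 on 2R, 8 of 10 on 3L and 9 of 11 on 3R, and there was none on chromosome 4. Over all protein-coding genes the bound share was between 15.4% (X) and 19.1% (2R) on these 5 arms. Of the 25 RpL genes with several annotated start sites 21 (84.0%) were bound, against 29.8% of such protein-coding genes, and of the 29 with a single one 22 (75.9%), against 12.2%.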
